A study of Mus musculus with 5 samples.

Results

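Arc and 9 other activity-induced early genes (Fos, Fosb, Junb, Egr1, Egr2, Npas4, Nr4a1, Ier2 and Dusp1) were examined in bulk RNA sequencing of mouse amygdala astrocytes. They were chosen by gene symbol, as 10 of the 35976 genes in the deposited table, and the set was drawn up because Arc was lower in the diphtheria toxin libraries. All groups carried the genotype Ccr2::CreERT2/+;DTR/+, in which a tamoxifen-inducible Cre recombinase is expressed from the Ccr2 locus, active mainly in monocytes, and the diphtheria toxin receptor is present. Astrocytes were pulled from digested amygdala with magnetic beads against the surface antigen ACSA-2, which leaves RNA of other cells in the libraries. Per the labels, every animal also received tamoxifen, 18 days of tube restraint, fear conditioning and fear extinction. The DTx group (3 libraries, called 5A, 6A and 7A) was given diphtheria toxin, and the saline group (2 libraries, replicates 1 and 2) was given saline instead. The design text names 3 saline animals, and 1 saline library is not analysed here. Every saline value below therefore comes from 2 libraries, and every direction holds for these 5 libraries alone. The directions below, that of Arc included, may not hold once that library is added, and they should not be read as differences between the treatments. No age is given in the labels, and they do not say whether each library is a separate animal, so the spread between libraries may be technical.

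Immediate early genes are transcribed within minutes of calcium or growth factor signalling, without new protein synthesis, mainly through the factors CREB, SRF and MEF2. In the amygdala their induction in neurons marks cells engaged by fear learning and extinction, and astrocytes also induce several of them. Arc encodes a synaptic protein that promotes AMPA receptor endocytosis and assembles into capsid-like particles. The other 9 comprise transcription factors of the AP-1, EGR, nuclear receptor and bHLH-PAS families, the nuclear protein Ier2, and Dusp1, a phosphatase that switches off MAP kinases.

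Total counts were 15961220 to 18708138 in the DTx libraries and 20577672 to 23720299 in the saline libraries. Summed over 16 astrocyte markers the level was 30340 to 33730 CPM in DTx and 29880 to 30770 CPM in saline libraries (CPM are read counts scaled to library size). Aldoc, a glycolytic enzyme enriched in astrocytes, stood at 6540 to 7210 CPM in DTx and 6841 to 7415 CPM in saline libraries. Summed over 10 oligodendrocyte markers the level was 42980 to 90700 CPM in DTx and 60230 to 92810 CPM in saline libraries, and summed over 15 microglia markers it was 304.8 to 500.5 CPM in DTx and 140.7 to 312.3 CPM in saline. Markers of border macrophages and of monocytes summed to 16.48 to 118.0 CPM in DTx and 16.16 to 23.36 CPM in saline libraries. Of these 10 genes 5 were tested and 0 passed by edgeR (0 at an unadjusted p under 0.05). The toxin is aimed mainly at monocytes, and this sum pools both cell types, so it gives no level for monocytes alone. Sex-linked transcripts coincided with the treatment label in 5 of 5 libraries. Xist, expressed from the inactive X chromosome, stood at 0.159, 0 and 0 CPM in 5A, 6A and 7A of the DTx group and at 172.6 and 128.9 CPM in saline replicates 1 and 2. Ddx3y, a Y-linked helicase, stood at 116.0 to 134.7 CPM in DTx and 0.0448 to 0.185 CPM in saline libraries. Differences between DTx and saline libraries therefore cannot be told apart from differences between sexes.

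Arc (GRCm38 chromosome 15, 74669083 to 74672570, minus strand) was at 18.0, 25.3 and 34.3 CPM in 5A, 6A and 7A of the DTx group, against 85.6 and 69.8 CPM in saline replicates 1 and 2. All 3 DTx libraries lay below these 2 saline libraries. This order rests on 2 of the 3 saline libraries of the design and may be lost, overlap included, with the one not analysed here. These levels rested on 341, 407 and 602 reads in DTx and on 1853 and 1557 reads in saline libraries. The means were 25.9 ± 8.15 CPM (SD, n = 3) in DTx and 77.7 ± 11.1 CPM (SD, n = 2) in saline, a log2 fold change of -1.59 ± 0.267 (SE) for DTx over saline in the fit across all genes. Because this difference chose the set, it is a description and carries no test.

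The AP-1 members Fos, Fosb and Junb were not separated by group. Fos, the prototype AP-1 subunit, was at 112, 41.0 and 81.9 CPM in 5A, 6A and 7A of the DTx group, against 136 and 58.7 CPM in saline replicates 1 and 2. Saline replicate 2 lay between DTx libraries 6A and 7A, so the groups overlapped, and the log2 fold change was -0.31 ± 0.518 (SE). Fosb, whose truncated splice form accumulates in chronically stimulated neurons, was at 4.07, 2.05 and 5.24 CPM in the DTx libraries, against 13.7 and 3.45 CPM in the saline replicates. Only saline replicate 1 stood above the DTx range (log2 fold change -1.18 ± 0.634, SE). Junb, a Jun-family partner of Fos proteins, was at 48.0, 21.6 and 56.8 CPM in the DTx libraries, against 108 and 24.3 CPM in the saline replicates (log2 fold change -0.65 ± 0.70, SE). The 2 saline values thus spanned the whole DTx range except its lowest library.

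The EGR zinc-finger factors behaved unlike each other. Egr1, which binds GC-rich promoters and is induced in the amygdala by fear learning, was at 29.1, 20.5 and 36.2 CPM in 5A, 6A and 7A of the DTx group, against 79.6 and 15.2 CPM in saline replicates 1 and 2. Its highest and its lowest library were both saline, 5.22-fold apart, and its log2 fold change was -0.73 ± 0.677 (SE). Egr2, also a regulator of myelination in Schwann cells, was at 5.97, 3.55 and 6.89 CPM in DTx and 6.23 and 4.84 CPM in saline libraries. The saline values lay inside the DTx range, with a log2 fold change of -0.02 ± 0.345 (SE).

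Nr4a1, an orphan nuclear receptor, had the smallest fold range over the 5 libraries among the 9 members tested. It was at 17.8, 15.4 and 20.3 CPM in the DTx libraries, against 23.1 and 14.8 CPM in the saline replicates, and the DTx values lay inside the saline range (log2 fold change -0.09 ± 0.234, SE). Npas4, a transcription factor largely restricted to neurons and induced by calcium influx, was close to the limit of detection. It had 4, 4 and 0 reads in 5A, 6A and 7A of the DTx group and 5 and 1 reads in saline replicates 1 and 2, so it failed the low-count filter and no difference was detectable at this depth.

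Ier2 and Dusp1 were the members that varied most among the DTx libraries. Ier2 was at 34.9, 9.52 and 21.1 CPM in the DTx libraries, against 86.6 and 13.7 CPM in the saline replicates (log2 fold change -1.19 ± 0.858, SE). The saline replicates were 6.33-fold apart and the DTx libraries 3.67-fold. Dusp1 was at 110, 28.0 and 96.0 CPM in DTx and 161 and 55.3 CPM in saline libraries (log2 fold change -0.48 ± 0.698, SE), and its DTx libraries were 3.92-fold apart. In both genes saline replicate 2 lay within the DTx range. In the annotation the spans of Junb and Dusp1 overlap genes on the opposite strand, Prdx2 and Ergic1, and the strand setting of the counting is unknown, so their counts may include reads of those genes.

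**Figure D1:**
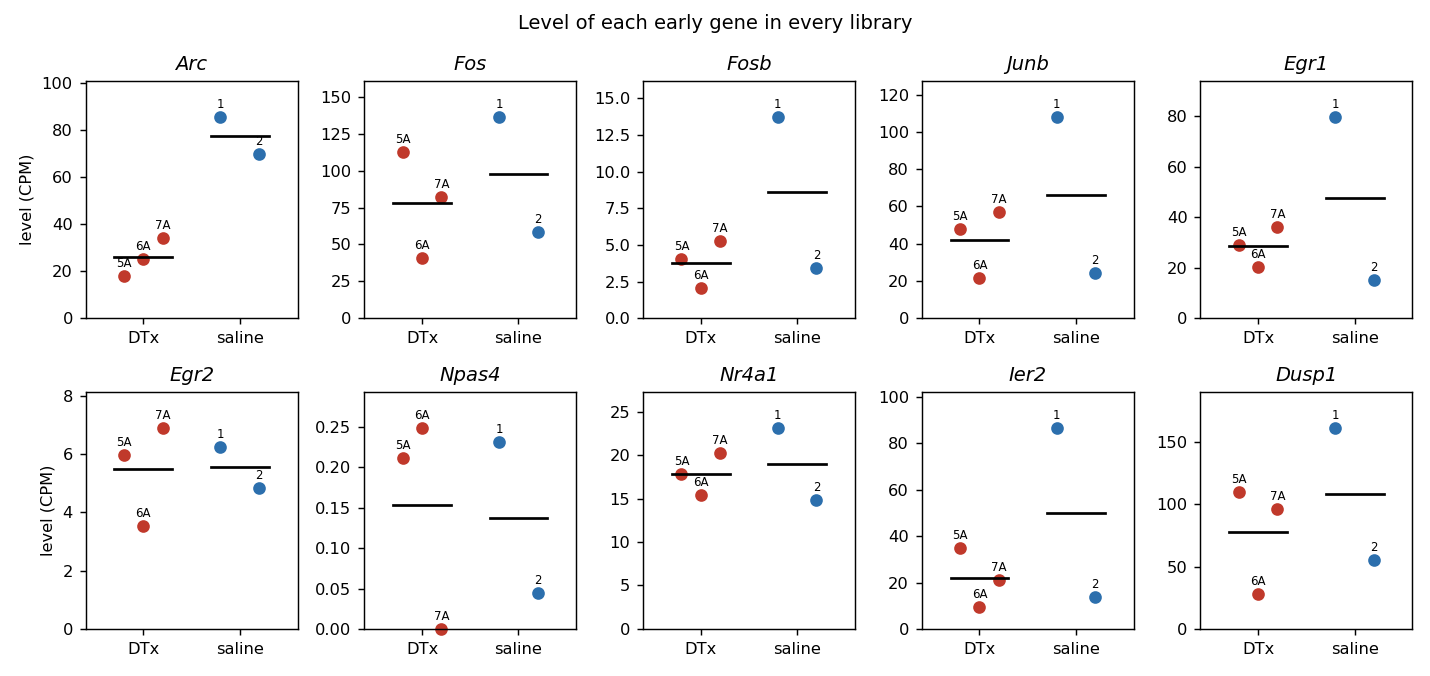
Level of each of the 10 early genes in CPM (linear axes starting at 0) in DTx (red, left) and saline (blue, right) libraries; points are libraries with their numbers and bars are group means. Arc is the 1 gene whose groups do not overlap, and in Egr1 the highest and lowest points are both saline.

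Of the 10 members 9 were tested in the fit across all genes, and 9 of 9 had a log2 fold change below 0, as did 49.7% of the 15532 genes tested. The median was -0.65 over the members and 0.00 over all genes tested (0.002 before rounding). Groups did not overlap in 1 of 9 members (Arc), with DTx lower, as in 8.99% of all genes, and in 0 of 9 with DTx higher, as in 12.1% of all genes. By edgeR's quasi-likelihood test 0 of 9 members passed an adjusted p of 0.05, where 0.0322% of all genes passed (0.00644% lower and 0.0258% higher in DTx), and 1 (Arc) had an unadjusted p under 0.05. The genes that passed were all sex-linked: Xist, lower in DTx, and Ddx3y, Eif2s3y, Kdm5d and Uty, higher in DTx. DESeq2 called 1 member, Arc, where 0.105% of genes were called lower in DTx, and the edgeR likelihood ratio test also called Arc alone, against 0.0901% of genes. With limma-voom 0 of 9 passed, against 0.00644% of genes, with 1 at an unadjusted p under 0.05. All of these counts come from the contrast that chose the set, so nothing is read from them.

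The shared negative sign of the other 8 members rested on saline replicate 1. This library held the highest level of 8 of the 9 members, all but Egr2. Without it 1 of 9 members, Arc, had a log2 fold change below 0, where 47.1% of all genes did, and the median of the members was 0.41. Junb, Egr1 and Ier2 were then at 0.80, 0.91 and 0.68 on the log2 scale, higher in DTx, and Fos, Fosb and Dusp1 at 0.41, 0.13 and 0.49. Arc stayed at -1.44 without saline replicate 1. Without saline replicate 2, 9 of 9 members were below 0, where 48.1% of all genes were, with Arc at -1.73, Fosb at -1.85 and Ier2 at -1.98. In each of these fits the saline group was 1 library, which was assumed to vary like the DTx libraries.

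**Figure D2:**
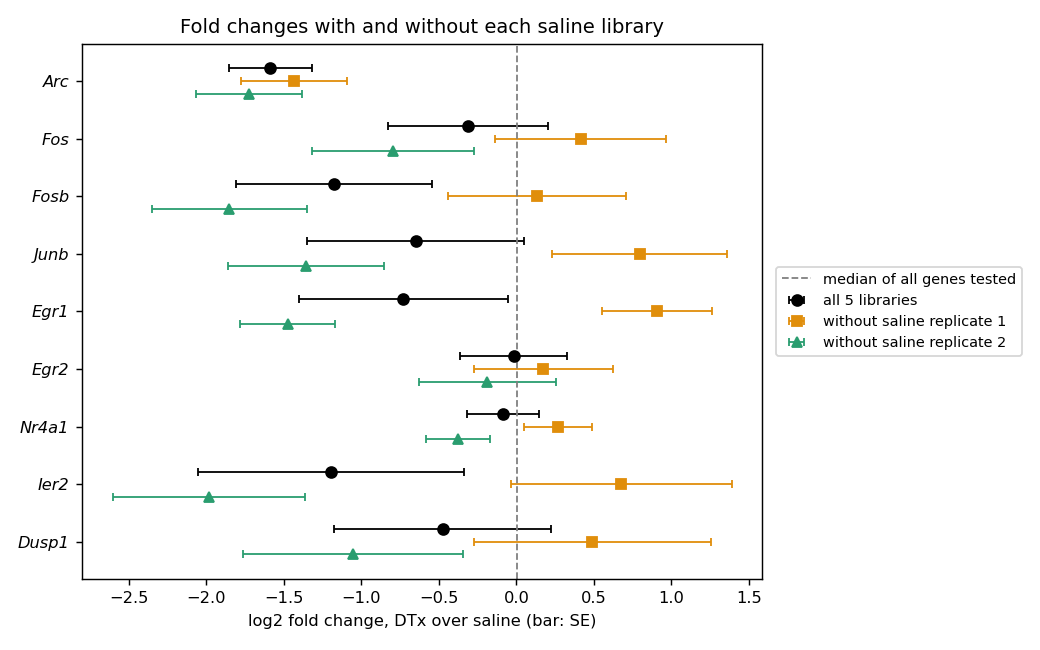
Log2 fold change of DTx over saline for the 9 early genes tested, with all 5 libraries (black circles), without saline replicate 1 (orange squares) and without saline replicate 2 (green triangles); bars are standard errors and the dashed line is the median of all genes tested. Arc stays between -1.73 and -1.44, whereas the other 8 genes lie above 0 without saline replicate 1.

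Relative to each gene's own mean, Fosb, Junb, Egr1 and Ier2 were high in saline replicate 1 and below the mean in saline replicate 2. They were less alike in DTx library 5A, from -0.18 for Fosb to 0.51 for Ier2. Values are log2 (CPM + 0.5) minus the mean over the 5 libraries. Fosb, Junb, Egr1 and Ier2 stood at 1.45, 1.30, 1.37 and 1.81 in saline replicate 1, and at -0.39, -0.83, -0.98 and -0.81 in saline replicate 2. Among the DTx libraries, 6A held the lowest value in 8 of the 9 members, among them Dusp1 at -1.44 and Fos at -0.93. Arc was the exception there. Its lowest library was 5A, at -1.11, and both saline replicates were above its mean. The root mean square (RMS) difference between 2 centred profiles, a measure of unlikeness over the 5 libraries, had a median of 0.947 from Arc to the other 8 members. The same median was 0.388 for Junb, 0.439 for Fosb and 0.441 for Fos. The closest pair was Egr2 and Nr4a1 at 0.199, followed by Junb and Egr1 at 0.234. Not every pair without Arc was closer than the pairs with it. Egr2 and Ier2 were 0.9025 apart and Nr4a1 and Ier2 0.8966, beside 0.7363 for Arc and Fosb. These values are descriptions of 5 libraries whose depth and cell content are shared by all members. Lower Arc in the DTx libraries chose the set, so its group order follows from that choice. Its distance from the other members is therefore no separate result.

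**Figure D3:**
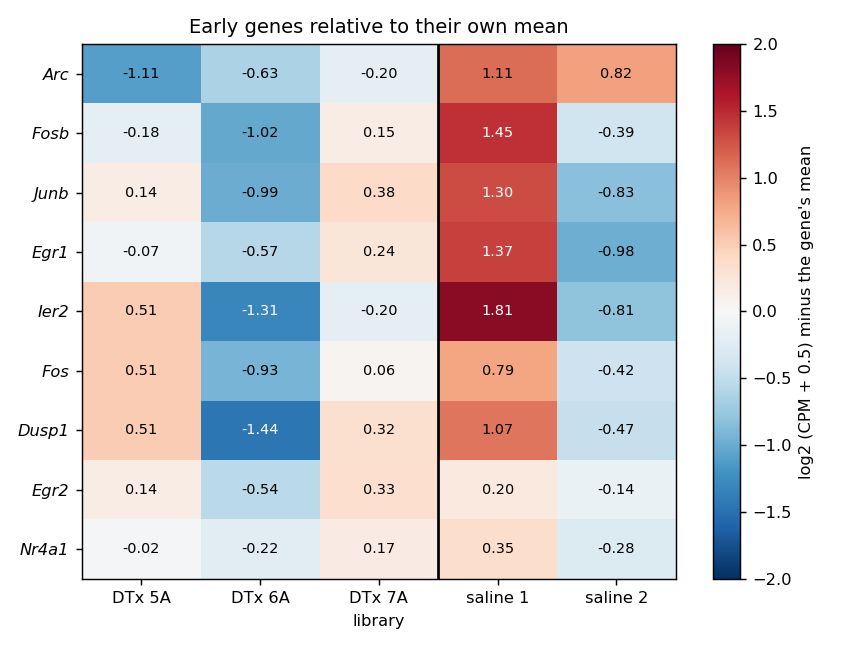
Level of each of the 9 early genes tested in every library as log2 (CPM + 0.5) minus the gene's mean over the 5 libraries, with DTx libraries left of the black line and saline libraries right of it. Saline replicate 1 is the reddest column for 8 genes, DTx library 6A is blue throughout, and Arc is the only row with both saline cells red.

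Compared per kilobase of annotated exon, Fos was the most abundant member in 5 of 5 libraries and Npas4 the least abundant in 5 of 5. The mean over the libraries was 36.6 ± 16.5 CPM per kb (SD, n = 5) for Fos. Dusp1, Junb and Ier2 followed at 27.2 ± 15.5, 22.5 ± 15.2 and 21.8 ± 20.6 CPM per kb, and their order changed between libraries, so these neighbours did not differ beyond their spread. Arc was at 5.90, 8.28 and 11.2 CPM per kb in 5A, 6A and 7A of the DTx group and at 28.0 and 22.8 CPM per kb in saline replicates 1 and 2. It ranked 6, 4 and 5 among the members in those DTx libraries, and 5 and 2 in the saline replicates. Egr1 and Nr4a1 came next, at 8.06 ± 5.71 and 5.21 ± 0.988 CPM per kb. Egr2 and Fosb were lower in every library, at 1.62 ± 0.388 and 0.914 ± 0.74 CPM per kb, and Npas4 averaged 0.0356 ± 0.028 CPM per kb. These levels divide by the length of the union of annotated exons, which holds more sequence than a single transcript where a gene has several.

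Promoter sequence is shown for 6 members because cyclic AMP response elements (CRE), the sites that CREB binds, are the best known shared control element of this gene class. RefSeq promoter windows were matched for 7 of the 10 members: Fos, Fosb, Junb, Egr2, Npas4, Nr4a1 and Dusp1. Arc, Egr1 and Ier2 had no entry. The 250 bases before each start were searched on both strands for the CRE core TGACG, the full CRE TGACGTCA (which holds a core on each strand), the TATA box TATAAA on the sense strand and the CArG box bound by SRF, by name. The 200 bases before the start are given below on the strand of the gene (GRCm38.p6), with matches in capitals.
Fos (chr12:85473690-85473889, plus strand): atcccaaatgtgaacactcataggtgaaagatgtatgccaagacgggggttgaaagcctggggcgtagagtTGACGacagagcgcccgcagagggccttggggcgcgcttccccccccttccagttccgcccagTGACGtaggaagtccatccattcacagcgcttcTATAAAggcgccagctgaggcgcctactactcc
Fosb (chr7:19310046-19310245, minus strand): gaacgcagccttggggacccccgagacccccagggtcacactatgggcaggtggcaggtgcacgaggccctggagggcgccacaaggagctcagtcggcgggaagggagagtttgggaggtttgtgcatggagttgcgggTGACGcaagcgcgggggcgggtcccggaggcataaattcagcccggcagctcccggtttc
Junb (chr8:84978749-84978948, minus strand): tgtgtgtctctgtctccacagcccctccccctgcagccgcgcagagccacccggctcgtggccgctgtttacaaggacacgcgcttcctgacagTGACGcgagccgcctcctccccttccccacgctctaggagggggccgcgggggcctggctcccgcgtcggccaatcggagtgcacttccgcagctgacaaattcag
Npas4 (chr19:4989972-4990171, minus strand): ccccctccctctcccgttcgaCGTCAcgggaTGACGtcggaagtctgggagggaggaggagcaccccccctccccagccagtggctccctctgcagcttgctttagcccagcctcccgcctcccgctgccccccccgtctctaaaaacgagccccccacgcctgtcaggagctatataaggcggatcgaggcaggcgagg
Nr4a1 (chr15:101266646-101266845, plus strand): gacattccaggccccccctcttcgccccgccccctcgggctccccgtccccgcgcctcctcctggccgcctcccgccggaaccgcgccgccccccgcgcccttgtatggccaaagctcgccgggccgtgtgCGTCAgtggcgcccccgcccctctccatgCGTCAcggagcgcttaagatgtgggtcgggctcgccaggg
Dusp1 (chr17:26508473-26508672, minus strand): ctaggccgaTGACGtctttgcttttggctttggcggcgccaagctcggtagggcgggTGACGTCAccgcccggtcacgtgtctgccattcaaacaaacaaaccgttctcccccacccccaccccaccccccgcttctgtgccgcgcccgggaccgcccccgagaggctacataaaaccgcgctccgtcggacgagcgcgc
All 7 members with a window held a CRE core, as did 19.8% of 27025 genes with a window. Dusp1 held the 1 full CRE among the members, at -143 to -136 from its start, where 1.77% of genes held one. Npas4 carried 2 cores, at -179 to -175 and -169 to -165 from the start, and Nr4a1 carried 4, of which 2 lie farther upstream than the stretch shown. The Fos window had cores at -129 to -125 and -66 to -62 and a TATA box at -33 to -28, a letter string that 8.94% of genes held. Within the 250 bases searched, a CArG box was found in Egr2, which had more than 1 window, where 1.62% of genes held one. Sites farther upstream were not searched, so the other members may hold one there. Cores were thus shared by members that varied widely between libraries, such as Dusp1 and Junb, by Nr4a1, which varied little, and by Npas4, which was barely detected. A match is a string of letters and says nothing of binding in these cells.

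Of the remaining rapid transcription regulators, 23 of 26 genes were tested, and 0 passed over all genes in either direction. At an unadjusted p under 0.05 there were 0 lower and 1 higher in DTx libraries. Their log2 fold changes were below 0 for 11 and above 0 for 12, with a median of 0.01 (0.015 before rounding) beside 0.00 over all genes, and a median of 0.65 without saline replicate 1. Jun, the AP-1 subunit that pairs with Fos, was at 123, 67.4 and 131 CPM in 5A, 6A and 7A of the DTx group, against 235 and 135 CPM in saline replicates 1 and 2. Its groups did not overlap, by the small gap between library 7A and saline replicate 2 (log2 fold change -0.79 ± 0.352, SE, edgeR adjusted p = 0.797). Fosl2, a Fos-related subunit, ran the other way at 2.27, 2.24 and 1.82 CPM in DTx and 1.25 and 0.717 CPM in saline libraries (edgeR adjusted p = 0.789). Ier3, an early gene linked to survival signalling, was at 2.33, 0.995 and 1.42 CPM in DTx and 0.508 and 0.852 CPM in saline. Zfp36, which destabilises inflammatory mRNAs, was at 51.7, 14.9 and 38.3 CPM in DTx and 21.2 and 18.7 CPM in saline, and its groups overlapped. Over the list, groups did not overlap in 1 gene with DTx lower and in 2 with DTx higher, beside 8.99% and 12.1% of all genes.

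Rapid signalling and feedback genes, of which 18 of 22 were tested, had 8 values below 0 and 10 above, with a median log2 fold change of 0.42. By edgeR 0 passed (2 lower and 3 higher at an unadjusted p under 0.05), where 2.0% and 4.29% of all genes were lower and higher at that unadjusted p. Phlda1 was called with DESeq2, which called 0.729% of all genes, and Phlda1 and Ptgs2 with the edgeR likelihood ratio test, which called 0.644% of all genes. The median was 0.15 without saline replicate 2 and 0.18 without DTx library 5A. Phlda1, an early gene of growth factor signalling, was at 11.8, 12.5 and 10.7 CPM in 5A, 6A and 7A of the DTx group, against 20.4 and 23.6 CPM in saline replicates 1 and 2 (log2 fold change -0.92 ± 0.163, SE, edgeR adjusted p = 0.759). Spry2, an inhibitor of receptor tyrosine kinase signalling, was at 119, 105 and 128 CPM in DTx and 199 and 143 CPM in saline. In both genes all DTx libraries lay below all saline libraries, as in 3 of the 18 tested and in 8.99% of all genes. Trib1, a pseudokinase, and Plk2, a kinase induced by synaptic activity, had the opposite order, held by 5 of the 18 and 12.1% of all genes. Trib1 was at 24.8, 29.0 and 29.1 CPM in DTx and 19.9 and 18.3 CPM in saline, and Plk2 at 30.4, 28.0 and 26.3 CPM in DTx and 21.3 and 20.4 CPM in saline. The adjusted p of these 4 genes was 0.759 to 0.789 by edgeR. Ptgs2, called by the likelihood ratio test, was higher in DTx, at 1.80, 0.435 and 1.08 CPM in 5A, 6A and 7A. It stood at 0.0462 and 0.0448 CPM in saline replicates 1 and 2, on 1 read in each, near the limit of detection.

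Effector genes that neuronal activity induces were mostly above 0. Of 22 tested of 23, 8 had a log2 fold change below 0 and 14 above, with a median of 0.20. By edgeR 0 passed (0 lower and 4 higher at an unadjusted p under 0.05), beside 2.0% and 4.29% of all genes at that unadjusted p, while Scg2 alone passed with DESeq2, with the edgeR likelihood ratio test and in edgeR without DTx library 7A, beside 0.729% and 0.644% of all genes for the first 2 tools. The median was 0.13 without DTx library 5A, 0.14 without 6A and 0.46 without saline replicate 1. Scg2, a granin of neuronal dense-core vesicles, was at 36.9, 31.6 and 16.6 CPM in 5A, 6A and 7A of the DTx group, against 7.85 and 7.93 CPM in saline replicates 1 and 2 (log2 fold change 1.85 ± 0.353, SE, edgeR adjusted p = 0.759). Vgf, a neuropeptide precursor induced by neurotrophins, was at 1.90, 2.11 and 1.71 CPM in DTx and 0.877 and 1.17 CPM in saline. The neuropeptide precursors Tac1 and Sst were at 3.17 to 6.82 and 3.53 to 8.33 CPM in DTx and 1.52 to 2.96 and 1.02 to 2.96 CPM in saline. These 4 genes, also markers of neurons or of neuronal subtypes, were higher in every DTx library, as were 6 of the 22 tested and 12.1% of all genes. The neuropeptide precursors Penk and Npy of the same list overlapped between the groups. The 2 effectors with the order of Arc, beside 8.99% of all genes, were Bdnf and Amigo3, named after their values were seen. Bdnf, a neurotrophin, was at 3.86, 2.18 and 4.10 CPM in DTx and 7.29 and 4.26 CPM in saline libraries, and Amigo3, a neuronal adhesion molecule, at 0.899, 0.746 and 0.57 CPM in DTx and 1.52 and 1.08 CPM in saline.

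Genes that act upstream of early gene transcription differed little. Of 31 tested of 31, 13 had a log2 fold change below 0 and 18 above, the median was 0.07, and 0 passed by edgeR, with 0 at an unadjusted p under 0.05. Mef2c, a MEF2 factor of excitatory neurons and microglia, was at 29.1, 21.9 and 14.6 CPM in DTx and 12.4 and 15.4 CPM in saline libraries. Crem, a CREB-family factor, was at 20.1 to 22.9 CPM in DTx and 14.0 to 19.2 CPM in saline. The kinases Rps6ka1 and Rps6ka5, which carry MAP kinase signals to CREB and chromatin, were at 9.83 to 18.2 and 17.3 to 28.9 CPM in DTx and 14.8 to 30.1 and 28.4 to 32.1 CPM in saline. The smallest adjusted p in this list was 0.797 by edgeR. With single libraries left out the median was -0.06 (without saline replicate 2) to 0.12 (without DTx library 5A).

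Among the genes of Arc's binding partners and of AMPA receptor trafficking, 25 of 25 were tested, 12 below 0 and 13 above, with a median log2 fold change of 0.08. By edgeR 0 passed, and at an unadjusted p under 0.05 there were 0 lower and 1 higher. The median was -0.07 to 0.12 with single libraries left out, below 0 without saline replicate 2, DTx library 5A or DTx library 6A. Cacng2 (stargazin), an auxiliary subunit that brings AMPA receptors to the synapse, was at 20.9, 23.0 and 20.2 CPM in 5A, 6A and 7A of the DTx group, against 15.2 and 11.3 CPM in saline replicates 1 and 2 (log2 fold change 0.69 ± 0.185, SE, edgeR adjusted p = 0.778). Gria1 and Gria3, AMPA receptor subunits, were at 625.1 to 1165 and 10.1 to 11.1 CPM in DTx and 538.8 to 626.9 and 6.90 to 8.59 CPM in saline. Dnm3, a dynamin of the endocytic machinery that Arc recruits, was at 61.6 to 94.2 CPM in DTx and 93.2 to 102.8 CPM in saline.

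**Figure D4:**
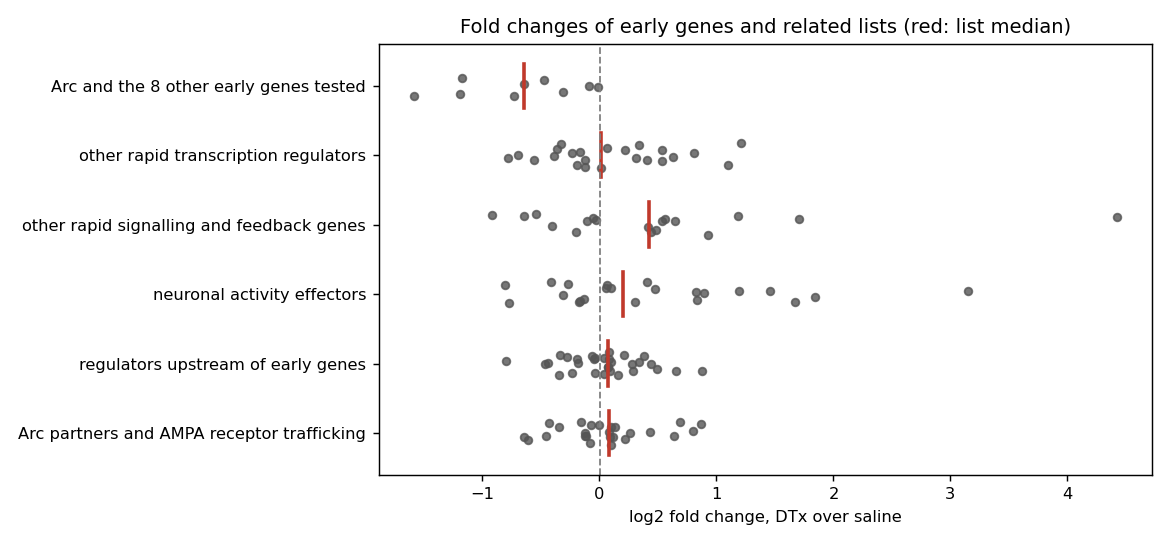
Log2 fold change of DTx over saline for each gene tested (points, spread vertically for visibility) in the early gene set and 5 related lists; red bars are list medians and the dashed line is the median of all genes tested. The early gene set has its median at -0.65 and the 5 other medians lie between 0.01 and 0.42.

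Arc is transcribed chiefly in neurons, so its level was set beside the neuronal RNA in each library. In bulk samples fewer cells of a type and less RNA per cell cannot be told apart. All 16 of 16 neuron markers were detected and tested, and 16 of 16 had log2 fold changes above 0 with a median of 0.64, while 0 passed by edgeR (8 higher at an unadjusted p under 0.05, beside 4.29% of all genes). Vsnl1 was the 1 marker called by DESeq2 and by the edgeR likelihood ratio test, beside 0.729% and 0.644% of all genes. Their summed level was 1268, 1608 and 1224 CPM in 5A, 6A and 7A of the DTx group, against 963 and 876.9 CPM in saline replicates 1 and 2. The groups did not overlap, and a two-sided exact permutation test gave p = 0.1, the smallest that 10 regroupings of 3 and 2 libraries allow. Vsnl1, a neuronal calcium sensor, was at 48.9, 53.2 and 49.0 CPM in DTx and 30.5 and 29.2 CPM in saline. Stmn2, a neuronal microtubule regulator, was at 24.6 to 39.9 CPM in DTx and 18.3 to 18.5 CPM in saline.

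As a percent of this summed neuron marker level, Arc stood at 1.42, 1.57 and 2.80 in 5A, 6A and 7A of the DTx group, against 8.88 and 7.96 in saline replicates 1 and 2. The ratio of DTx to saline means was 0.2295, beside 0.333 for the CPM themselves. A lower ratio follows from the choice of Arc and from the higher neuron marker sum in DTx, so it adds no support. Slc17a7, the vesicular glutamate transporter of cortical-type excitatory neurons, in which Arc is strongly induced, was at or below 1.80 CPM in every library of both groups. Slc17a6, its counterpart in subcortical and medial amygdala neurons, was at 8.37 to 19.9 CPM in DTx and 3.72 to 12.1 CPM in saline. Summed over 10 glutamatergic markers the level was 30.7 to 61.5 CPM in DTx and 17.2 to 40.0 CPM in saline, and over 10 GABAergic markers 140.5 to 260.0 CPM in DTx and 149.3 to 181.5 CPM in saline, so both overlapped.

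Oligodendrocyte markers had log2 fold changes below 0 in 10 of 10 genes, with a median of -0.46 and 0 passing by edgeR (0 at an unadjusted p under 0.05). The median was -0.05 without saline replicate 2, -0.26 without DTx library 5A, -0.27 without 6A, -0.92 without 7A and -0.71 without saline replicate 1. Their summed level was 42980, 44300 and 90700 CPM in 5A, 6A and 7A of the DTx group and 60230 and 92810 CPM in saline replicates 1 and 2. The part of oligodendrocyte RNA in the Arc values was not tested.

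**Figure D5:**
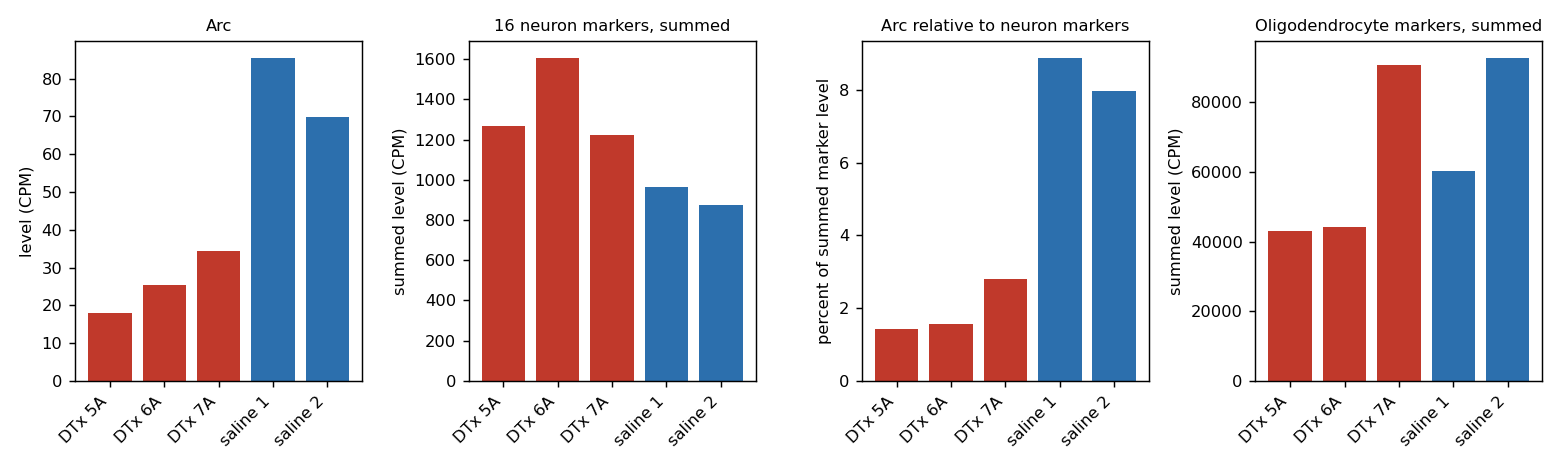
Arc in CPM, the summed CPM of 16 neuron markers, Arc as a percent of that sum, and the summed CPM of 10 oligodendrocyte markers in each library (bars from 0; DTx red, saline blue). Arc is lower and the neuron marker sum higher in all 3 DTx libraries than in either saline library.

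The levels of early genes were also set beside genes known to respond to enzymatic digestion of tissue, since all libraries came from papain-digested amygdala. This list of 32 genes shares 7 members (Fos, Fosb, Junb, Egr1, Ier2, Dusp1 and Nr4a1). Of 31 tested, 23 were below 0 and 8 above, with a median log2 fold change of -0.31, and 0 passed by edgeR (0 lower and 3 higher at an unadjusted p under 0.05). Its summed level was 2754 to 3335 CPM in DTx and 3060 to 3068 CPM in saline libraries. The median was 0.49 without saline replicate 1, -0.60 without saline replicate 2 and -0.03 without DTx library 6A. Nfkbia, the NF-kB inhibitor, Cebpd, a stress-induced transcription factor, and Mt2, a metallothionein, ran against the members. They were at 60.3 to 97.4, 10.8 to 11.9 and 139.9 to 176.2 CPM in DTx and at 28.1 to 47.9, 4.43 to 7.80 and 66.8 to 124.2 CPM in saline. Some other genes of the list had a library pattern near that of Fos, and 4 are named here after their values were seen. Zfp36 and Klf4 of the same list did not, and were highest in DTx library 5A. Atf3, a stress-induced factor, was at 13.9, 1.80 and 6.32 CPM in DTx and 16.6 and 2.33 CPM in saline libraries, and Btg2, an antiproliferative gene, at 63.0, 29.0 and 43.2 CPM in DTx and 105.9 and 26.9 CPM in saline. Socs3, a feedback inhibitor of cytokine signalling, was at 10.2, 3.48 and 8.26 CPM in DTx and 16.7 and 3.85 CPM in saline, and Klf2, a Krüppel-like factor, at 6.92, 1.37 and 5.07 CPM in DTx and 9.79 and 1.44 CPM in saline. All 4 were highest in saline replicate 1 and, among the DTx libraries, lowest in 6A, though Btg2 was lower still in saline replicate 2. The part of tissue handling in the early gene levels was not tested.

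Ependymal and choroid plexus markers summed to 200.6, 132.0 and 44.15 CPM in the DTx libraries and 226.0 and 36.18 CPM in the saline replicates. DTx library 5A and saline replicate 1 thus had similar sums, though not similar levels of each marker. Of 6 tested of 8, 5 had a log2 fold change below 0 and 1 above, with a median of -0.93, and 0 passed by edgeR (0 lower and 1 higher at an unadjusted p under 0.05). The median was 3.74 without saline replicate 1, -1.99 without saline replicate 2, -1.69 without DTx library 5A, -0.43 without 6A and -0.34 without 7A. Clic6, a choroid plexus chloride channel protein, was at 67.8, 92.7 and 12.6 CPM in DTx and 9.33 and 8.29 CPM in saline. It was higher in every DTx library, as were 12.1% of all genes, and it passed without DTx library 7A. Foxj1, a master regulator of motile cilia, was at 18.8, 11.3 and 17.9 CPM in 5A, 6A and 7A of the DTx group, against 79.4 and 14.6 CPM in saline replicates 1 and 2. Tmem212 and Ccdc153, further ciliated-cell genes, were at 28.2 and 39.4 CPM in DTx library 5A, and at 47.7 and 41.7 CPM in saline replicate 1, while each of the other libraries held 2.43 CPM or less of both. The part of ventricular cells in the early gene levels was not tested.

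The genes whose profile over the 5 libraries was most like that of Arc were Hcn2, Ptchd2, Sema7a, Slain1, Mmp15 and Unc5b, with RMS differences of 0.324 to 0.352 among genes of at least 5 CPM. Hcn2, a hyperpolarisation-activated cation channel, was at 16.9, 21.6 and 44.2 CPM in 5A, 6A and 7A of the DTx group, against 97.7 and 46.9 CPM in saline replicates 1 and 2. Slain1, a microtubule-associated protein, was at 32.8, 32.3 and 54.6 CPM in DTx and 82.9 and 71.4 CPM in saline, and Unc5b, a netrin receptor, at 31.3, 29.0 and 52.0 CPM in DTx and 79.2 and 67.2 CPM in saline. None of these 6 was an early gene of the lists. Most like Fos were Aebp1, Kif6 and Ift88, with RMS differences of 0.206 to 0.24. Kif6 and Ift88, genes of ciliary transport, were at 7.45, 3.92 and 5.87 and at 13.9, 6.84 and 8.49 CPM in DTx libraries, against 13.8 and 4.62 and 16.3 and 8.29 CPM in saline replicates 1 and 2. Like Fos, both were highest in saline replicate 1, then in DTx library 5A, and lowest in 6A.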

How the data were processed

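The authors deposited unnormalized counts of reads per gene for single libraries. STAR 2.7.5c, featureCounts 2.0.1 and the builds GRCm38 and mm10 are listed in the submitters' processing notes, beside fastp 0.23.2 and edgeR 3.42.4. Their settings, the annotation and strandedness: not given in the sources used here. Columns were matched by name: saline by Ctrl and number, DTx by group only, since their numbers are in no label. Of the per-sample columns, 1 more was left out of every step. Every pair of libraries differed by more than sampling noise (chi-square per degree of freedom of at least 14.25, for 5A and 6A). Likeness on this measure did not follow the groups throughout. DTx library 7A was nearer to saline replicate 2 (17.68) than to 5A (60.74) or 6A (58.36), and the saline replicates stood at 59.97.

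Counts were compared with edgeR 4.0.16 in R 4.3.3 (TMM scaling, low counts removed by filterByExpr at a minimum of 10, robust quasi-likelihood F test, Benjamini-Hochberg adjustment over 15532 genes, threshold 0.05). Levels are TMM-scaled CPM. Alternatives were other scalings and filters, DESeq2 1.42.0, limma-voom (limma 3.58.1), the likelihood ratio test and each library left out. The test was also tested on simulated data. Exon lengths and positions are from GENCODE M21 (GRCm38), promoters from RefSeq (GRCm38.p6). All members are named, with up to 4 genes of smallest p per list at a mean of 1 CPM or more, and the genes most like Arc (6) and Fos (3); marker genes are named for their level. Members and lists were chosen with earlier results of these data known. Reads carry no stated molecular identifiers.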

Additional observations from a re-analysis of the deposited data

How the results depend on the processing

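Arc was below 0 on the log2 scale under every alternative run (scaling, filter, tool and each library left out). It was at -1.84 to -1.38 with a library left out. Every run drew on the same 5 libraries, without the saline library not analysed here. The direction may not hold once that library is added. Arc passed the adjusted threshold with DESeq2 (-1.60) and the edgeR likelihood ratio test (-1.59), and not with the other alternatives. The cause was not tested. These calls come from the contrast that chose the set and support nothing. The count of all genes called was 5, but 111 with DESeq2, 100 with the likelihood ratio test and 9 with no low-count filter. The 5 genes of the main fit were the sex-linked Ddx3y, Eif2s3y, Kdm5d, Uty and Xist. With a DTx library left out the count of all genes called ranged from 5 to 13, the highest without DTx library 7A. Members below 0 numbered 9 of 9, with a range of 1 to 9 and a median of -1.36 to 0.41 when a library was left out. Without saline replicate 1 the values were 0.41 for Fos, 0.13 for Fosb, 0.80 for Junb, 0.91 for Egr1, 0.18 for Egr2, 0.27 for Nr4a1, 0.68 for Ier2 and 0.49 for Dusp1, and without DTx library 6A they were 0.21 for Egr2 and 0.00 for Nr4a1 (0.004 before rounding). With a library left out the lowest values were -0.80 for Fos, -1.85 for Fosb, -1.36 for Junb, -1.48 for Egr1, -0.22 for Egr2, -0.37 for Nr4a1, -1.98 for Ier2 and -1.05 for Dusp1. These 8 members kept their sign under the 3 other scalings, 2 other filters and 3 other tools. The ratio of Arc per neuron marker level stayed between 0.178 and 0.260 with a library left out. No paired analysis was possible because the DTx columns carry no replicate number of the labels. With 2 saline libraries, leaving out 1 of them turns the direction of 8 of 9 members.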
